A study of Mus musculus with 4 samples.

Results

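Ligands of the epidermal growth factor (EGF) receptor were followed in RNA from mouse skin, together with the receptor itself and its inhibitor. The 7 genes, out of 55335 in the deposited tables, were taken by name: the ligands Areg, Ereg, Hbegf, Btc and Tgfa, the receptor Egfr and the inhibitor Errfi1. The libraries came from cells labelled CD4+ T cells, taken from the back skin of mice of 8 to 12 weeks. Both genotypes carried floxed Mettl3 alleles (Mettl3fl/fl), and all mice received imiquimod cream (5%) on 5 days, 15 or 62.5 mg a day. Controls carried the floxed alleles alone (2 libraries), and knockouts also carried Cre under the Cd4 promoter (Mettl3fl/fl;Cd4-Cre, 2 libraries). That promoter is active in developing T cells, so other skin cells of the knockouts are not its target. METTL3 is the catalytic subunit of the enzyme that writes N6-methyladenosine on RNA, and imiquimod, which activates Toll-like receptor 7, is used to model psoriasis in mouse skin.

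EGF receptor ligands are made as membrane-anchored precursors and are released by metalloproteases, chiefly ADAM17. The released ligand binds EGFR, a receptor tyrosine kinase that signals through RAS and the MAP kinases, and ERRFI1 binds the kinase domain and shuts it off. In skin, the ligands drive keratinocyte growth and migration and are known from psoriatic epidermis. Areg, amphiregulin, is also made by regulatory T cells, type 2 innate lymphoid cells and mast cells in tissue repair.

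Areg has the highest level per length of the 5 ligands. Egfr and Errfi1 are the members whose libraries did not overlap between genotypes, which holds for 30.7% of all genes tested. For Errfi1, 99.4% of the fragments lay in an exon of a non-coding transcript. The 100 bases before the RefSeq start site of these 3 genes are shown. They are plus-strand sequences of GRCm38.p6, at chr5:91139499-91139598 for Areg, chr11:16752103-16752202 for Egfr and chr4:150854970-150855069 for Errfi1. Capitals mark 3 motifs searched on both strands: TGACGTCA, the element bound by CREB-family factors, TATAAA, the TATA box, and GGGCGG, the GC box.
Areg: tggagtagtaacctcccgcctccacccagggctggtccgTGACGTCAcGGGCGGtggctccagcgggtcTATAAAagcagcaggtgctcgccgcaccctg
Errfi1: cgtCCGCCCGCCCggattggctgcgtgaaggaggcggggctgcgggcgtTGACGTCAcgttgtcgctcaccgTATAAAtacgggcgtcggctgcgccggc
Egfr: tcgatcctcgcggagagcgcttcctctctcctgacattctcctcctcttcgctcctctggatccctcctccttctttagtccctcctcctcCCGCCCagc

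Areg and Errfi1 both hold the letters TGACGTCA, with their first base 61 and 51 bases before the start site, and a TATAAA at 31 and 28 bases. In Errfi1 the 2 matches of the GC box overlap each other, and no other marked motifs overlap. Over 32851 RefSeq promoter windows of 300 bases, 1.79% hold TGACGTCA, 13.6% hold TATAAA and 35.7% hold GGGCGG. Within the 100 bases before the start site, the part shown above, the shares are 1.15%, 5.56% and 24.7%. The AP-1 motif TGANTCA, also searched, is in 7.81% of the windows and in none of those of Areg, Btc, Tgfa, Egfr and Errfi1. The windows of Btc and Tgfa, and that of a second Errfi1 start site farther upstream, hold neither TGACGTCA nor TATAAA. Ereg and Hbegf had no entry in the promoter table. A match is a description of the letters and shows no binding.

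The mature messages of the members differ in a second feature. The pentamer ATTTA is the core of the AU-rich elements that mark short-lived messages. The 3′ UTR of Areg (256 bases with the stop codon) holds 4 copies, or 15.6 per kilobase, the 99.8th percentile of 19167 protein-coding genes with at least 100 such bases. The other members hold between 1.06 (Tgfa) and 2.88 (Errfi1) copies per kilobase, against a median of 1.30. The letters GGACT, 1 form of the sequence that METTL3 methylates, occur 2.47 times per kilobase in the Areg transcript and 2.53 times in that of Hbegf, near the 94th percentile of 21877 genes. In Ereg they occur 0.242 times per kilobase, and the median gene has 1.02. No methylation was measured here.

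The libraries held 3614418 to 4537006 counted fragments, with fragments of 11424 to 20100 genes. Control 2 was the lowest in both, with 11424 genes against 16273 to 20100 in the others, which limits what its counts of 0 show. The cell label was checked against markers. A list of 12 T cell markers held 0.107% and 0.0329% of fragments in controls 1 and 2, and 0.0283% and 0.0142% in knockouts 1 and 2. Cd4 had 777, 0, 420 and 9 fragments in control 1, control 2, knockout 1 and knockout 2, and Foxp3, which defines regulatory T cells, had 0 in all 4, but no more than 130 of its bases were countable. Macrophage and monocyte markers (10 genes) held between 0.524% and 2.14%, more than the T cell list in every library, so the libraries are not described here as T cells. Lyz2 for macrophages, Mmp8 for neutrophils and Cd207 for dendritic and Langerhans cells had the highest CPM of their lists in each library. These ranks are not per length, and S100a9, also a neutrophil marker, had no more than 13 countable bases and 0 fragments. By the mean CPM of the 4 libraries, Trac led the T cell list, Mmp2 the fibroblast list and Kdr the endothelial list, but each was exceeded by another marker in at least 1 library. Control 2 stood apart, with 2.41% of fragments in 10 keratinocyte markers against 0.0996% to 0.206% in the others, led there by Perp at 6580 CPM against 100.5 to 442.5. In bulk RNA, fewer cells of a type and less RNA per cell cannot be told apart.

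Of the 7 members, 6 had enough fragments to be tested, and none differed between the genotypes beyond the spread of the libraries. Levels are given as TMM-scaled CPM, and the test was edgeR's quasi-likelihood test with Benjamini-Hochberg adjustment over 12434 genes at 0.05. Over all those genes, 0.00% were called, the lowest adjusted p was 0.9997, and 1.50% had an unadjusted p under 0.05 (187 genes, none of them a member). DESeq2 called 17 of all genes and limma-voom 0, and neither called a member. With 2 libraries a genotype, an exact permutation test of a single gene cannot reach 0.05.

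**Figure D1:**
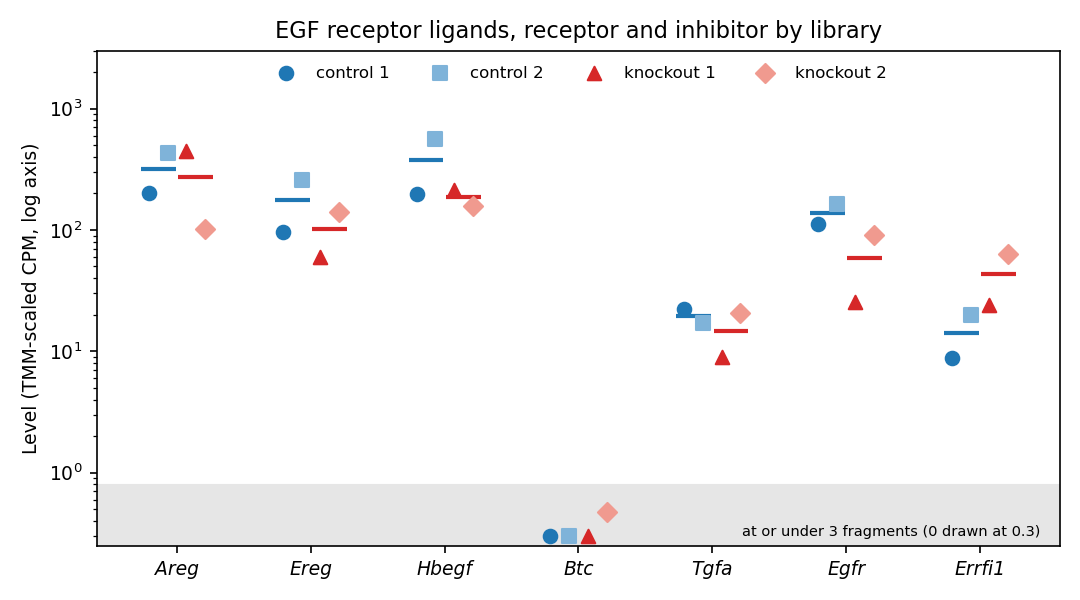
Level of each member (TMM-scaled CPM, log axis) in the 4 libraries, with short lines at the mean of each genotype. The libraries of the 2 genotypes interleave for Areg, Ereg, Hbegf and Tgfa, both knockouts lie under both controls for Egfr and above them for Errfi1, and Btc lies at or under 3 fragments. Levels of different genes are not per length here.

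Areg was the most abundant of the ligands per length, and the 2 knockouts lay far apart. Its fragments numbered 931 in control 1, 1632 in control 2, then 1801 and 430 in knockouts 1 and 2, or 203.2, 430.8, 449.5 and 101.7 CPM. The highest and the lowest library were thus both knockouts, 4.42-fold apart. Its mean was 317.0 ± 160.9 CPM over the controls and 275.6 ± 246.0 over the knockouts (SD, n = 2 each), for a log2 fold change of -0.20 ± 0.88 (standard error; edgeR, adjusted p = 0.9997). Its sign turned without control 2 (0.43) and without knockout 2 (0.60). Of the cell types known to make it, 4 type 2 innate lymphoid markers summed to 211.3, 227.3, 135.8 and 55.8 CPM in control 1, control 2, knockout 1 and knockout 2. Gata3 was highest in each library but knockout 2, where Il1rl1 was. In control 2, Gata3 alone made up 226.2 CPM, and Il1rl1 and Klrg1 had 0 fragments. Gata3 was lower in both knockouts than in both controls, while Il7r was higher, at 7.42, 1.06, 28.45 and 7.57 CPM in control 1, control 2, knockout 1 and knockout 2. The 7 mast cell and basophil markers summed to 170.9, 97.4, 135.0 and 374.5 CPM in that order, with Cpa3 highest in the knockouts and Mcpt4 in the controls, and Mcpt8, with 215 countable bases, at 0 fragments throughout. The 5 regulatory T cell markers, led by Il2ra, summed to 339.0, 145.7, 119.3 and 29.1 CPM. Keratinocyte markers summed to 1354, 22960, 2222 and 1025 CPM in the same order. The part of these cells in the Areg counts was not tested.

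Hbegf, heparin-binding EGF-like growth factor, which is also a ligand of ERBB4, had 904 and 2117 fragments in controls 1 and 2 and 856 and 667 in knockouts 1 and 2. At 558.8 CPM, control 2 stood above the other libraries, which lay between 157.7 and 213.7 CPM. The genotypes overlapped, since control 1 (197.3 CPM) lay between the 2 knockouts. The log2 fold change was -1.03 ± 0.71 (standard error; edgeR, adjusted p = 0.9997), and it was -0.10 without control 2. Keratinocyte markers summed to 22960 CPM in control 2 and to 1025 to 2222 CPM elsewhere, and their part in this value was not tested.

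Ereg, epiregulin, a ligand of EGFR and ERBB4 encoded beside Areg on chromosome 5, had 442 and 973 fragments in controls 1 and 2 and 241 and 600 in knockouts 1 and 2. These are 96.5, 256.8, 60.2 and 141.8 CPM, so control 2 was again the highest library while knockout 1, the highest for Areg, was the lowest for Ereg. The log2 fold change of -0.81 (standard error 0.84; edgeR, adjusted p = 0.9997) became 0.06 without control 2. The 2 genes are separated by 45952 bases, with Ereg at 91074622 to 91093646 and Areg at 91139599 to 91148432 of GRCm38 chromosome 5, both on the plus strand.

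Tgfa, transforming growth factor alpha, a ligand that keratinocytes make for themselves, was low, at 22.3 and 17.2 CPM in controls 1 and 2 and 8.99 and 20.6 in knockouts 1 and 2 (102, 65, 36 and 87 fragments). The controls lay close together and knockout 1 was the lowest library. The log2 fold change was -0.42 ± 1.31 (standard error; edgeR, adjusted p = 0.9997), and 0.10 without knockout 1. Btc, betacellulin, had 2 fragments in knockout 2 and 0 in the other libraries. A count of 0 allows up to 0.655 to 0.792 CPM (3 fragments a library), which covers counting error only. Of the 19 exon entries of Btc, 10 share their coordinates with another transcript and could not be counted, and only 5 of the 19 had any countable base. The 2 fragments lay in a retained-intron exon, so the Btc message was hardly measured.

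The split of counted fragments among the ligands differed between libraries. Areg made up 39.1% and 34.1% of the ligand fragments in controls 1 and 2, with exact 95% intervals of 37.2 to 41.1 and 32.8 to 35.5. Its share was 61.4% in knockout 1 (59.6 to 63.2), against 24.1% in knockout 2 (22.1 to 26.1). Ereg made up 18.6%, 20.3%, 8.21% and 33.6% in the same order. The 2 knockouts lay on either side of both controls for both ligands. Counted fragments of Areg per fragment of Ereg were 2.11 and 1.68 in controls 1 and 2, and 7.47 and 0.717 in knockouts 1 and 2. All 5 ligands together reached 519.3 and 1264 CPM in controls 1 and 2 and 732.3 and 422.2 CPM in knockouts 1 and 2. These shares are of counted fragments and are not per length.

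**Figure D2:**
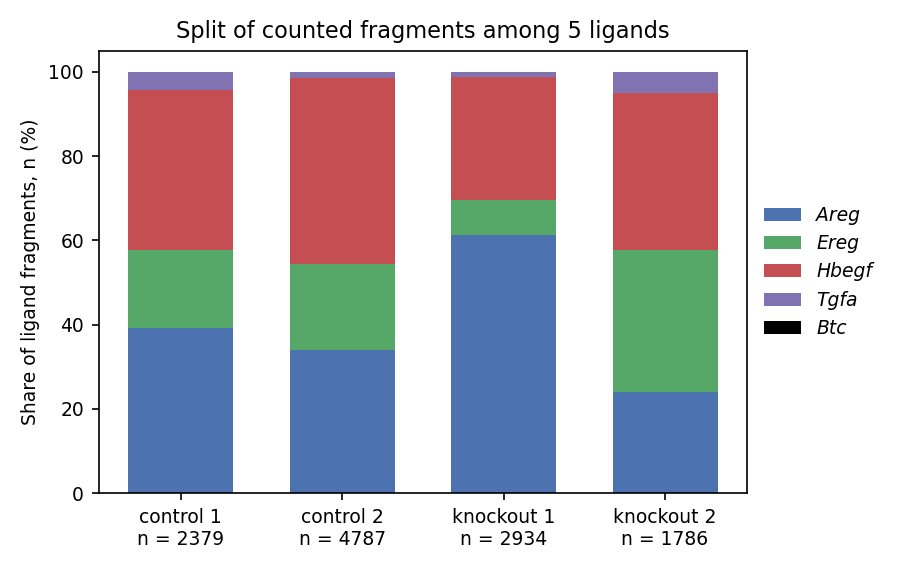
Share of counted ligand fragments (%) that fell to each of 5 ligands in each library, with n the number of ligand fragments. Areg takes 61.4% in knockout 1 and 24.1% in knockout 2, and the 2 controls lie between them.

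Per kilobase of countable sequence in protein-coding transcripts, Areg averaged 243.9 CPM and Hbegf 153.1, followed by Ereg at 34.8, Egfr at 11.8 and Tgfa at 4.36. Areg and Hbegf were neighbours, with SDs over the 4 libraries of 141.1 and 109.0. Areg was the higher in each library, but in knockout 2 they were 83.7 and 80.7. The difference between the 2 genes was not tested. In each library the order was Areg, Hbegf, Ereg, Egfr and Tgfa. Only fragments lying within 1 exon entry were counted, which favours long exons. The 6 exons of Areg are 109 to 276 bases long, while 95.3% of the Ereg fragments lay in its last exon of 3583 bases.

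Egfr was lower in both knockouts than in both controls, although it did not pass the test. Controls 1 and 2 had 512 and 618 fragments and knockouts 1 and 2 had 102 and 387, or 111.8, 163.1, 25.5 and 91.5 CPM. The control mean of 137.4 ± 36.3 CPM stood against 58.5 ± 46.7 for the knockouts (SD, n = 2 each), and the log2 fold change was -1.23 ± 0.90 (standard error; edgeR, adjusted p = 0.9997). The 2 knockouts differed 3.59-fold, more than the 2.35-fold between the genotype means. The value was -2.35 without knockout 2 and -0.53 without knockout 1. Fibroblast markers, whose cells express Egfr, held 1.22% and 0.271% of control fragments and 0.520% and 0.554% of knockout fragments, and keratinocyte markers were highest in control 2. Their part in the difference was not tested.

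Errfi1, also called Mig-6, is itself induced by EGFR signalling and was the member with a positive fold change. Controls 1 and 2 had 40 and 75 fragments and knockouts 1 and 2 had 97 and 266, or 8.73, 19.8, 24.2 and 62.9 CPM. Both knockouts lay above both controls, and the log2 fold change was 1.61 ± 1.22 (standard error; edgeR, adjusted p = 0.9997), between 0.86 and 2.31 with 1 library left out. Less the median of all genes, it was 1.41, and -0.52 without control 1. Control 2 and knockout 1 were close, and the extremes were knockout 2 and control 1. Of the 478 fragments, 475 (99.4%) lay in 1 exon of 347 bases, 150855468 to 150855814 of GRCm38 chromosome 4, which is annotated only in a non-coding processed transcript (Errfi1-203). Exons of its protein-coding transcripts held 1, 0, 2 and 0 fragments, so the coding message was hardly counted and its level cannot be read from these tables.

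Of the 6 tested members, Errfi1 was the 1 with both knockouts above both controls and Egfr the 1 with both below. Among all 12434 genes, 19.5% had both knockouts above and 11.2% had both below, or 30.7% together, so 2 of 6 is near the background. The median log2 fold change of the members was -0.61, with 5 negative and 1 positive, against 0.20 over all genes tested, of which 56.9% were positive. Without control 2, the library rich in keratinocyte markers, the values of Areg and Ereg were positive, that of Hbegf was -0.10, and Tgfa, Egfr and Errfi1 kept their signs at -0.60, -0.94 and 2.31.

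**Figure D3:**
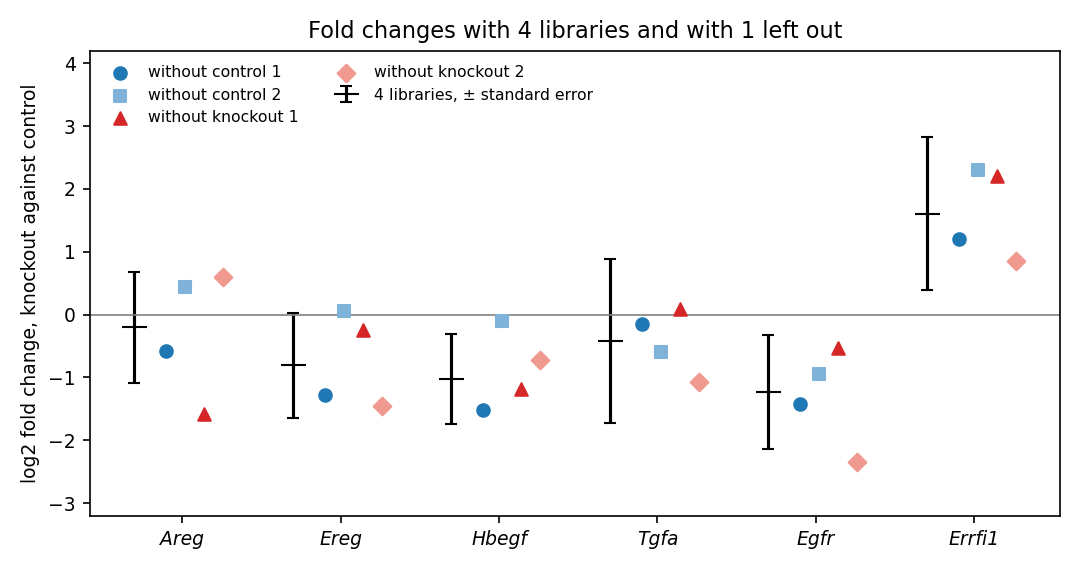
log2 fold change of the 6 tested members, knockout against control, with all 4 libraries (black, ± standard error) and with each library left out (coloured). Egfr and Hbegf stay under 0 and Errfi1 above 0 in all 5 fits (less the median of all genes, Errfi1 is at -0.52 without control 1), while Areg, Ereg and Tgfa fall on both sides.

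The exons that carried the fragments differed between libraries for Areg, Tgfa and Egfr. All 6 exons of Areg, which has a single annotated transcript, held fragments in all 4 libraries. Exon 3 held the most, at 25.1% and 26.2% in controls 1 and 2 and 26.3% and 29.1% in knockouts 1 and 2. The last exon held 19.7% in control 2 (exact 95% interval 17.8 to 21.8) and 11.7% to 12.6% in the other libraries. Exon 4 held 10.5% in control 2 (9.03 to 12.1) and 16.8% in control 1 (14.4 to 19.3), with the knockouts between them. Hbegf showed the same library apart, with 87.3% of its fragments in the last coding-transcript exon in control 2 and 71.7% to 73.6% elsewhere. Its retained-intron exon held 2.46% in control 2 and 8.41% to 11.5% elsewhere.

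Of the 3528 countable bases in coding-transcript exons of Tgfa, 3500 lie in the last exon of Tgfa-201 (86271948 to 86275719 of chromosome 6), the main coding transcript. The other coding exons could thus hardly be counted. That last exon held all fragments of control 1, control 2 and knockout 2. In knockout 1 it held 6 of 36, and the other 30 (83.3%, exact 95% interval 67.2 to 93.6) lay in the terminal exon of a non-coding transcript (Tgfa-203, 86208091 to 86209914), where the other 3 libraries had 0. Summed over coding-transcript exons alone, Tgfa therefore had 102, 65, 6 and 87 fragments in control 1, control 2, knockout 1 and knockout 2. Counting was without strand, so RNA of the opposite strand there cannot be told apart.

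Of the 56 exon entries of Egfr, 38 share their coordinates with another entry and only 12 had any countable base. The last exon (16911494 to 16918158 of chromosome 11) holds 6665 of the 8576 countable bases, so a large share was set by the counting. It held 78.3% and 98.4% of Egfr fragments in controls 1 and 2 and 76.5% and 87.9% in knockouts 1 and 2. A shorter coding transcript, Egfr-202, ends upstream at 16887923. The exon at its end (16887141 to 16887923) held 83 of 512 fragments in control 1 (16.2%), 13 of 102 in knockout 1 (12.7%) and 47 of 387 in knockout 2 (12.1%). Control 2 had 0 of 618 there (exact 95% interval 0 to 0.595%). Control 2 thus held Egfr fragments without any in that exon, whereas the other 3 libraries had similar shares.

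**Figure D4:**
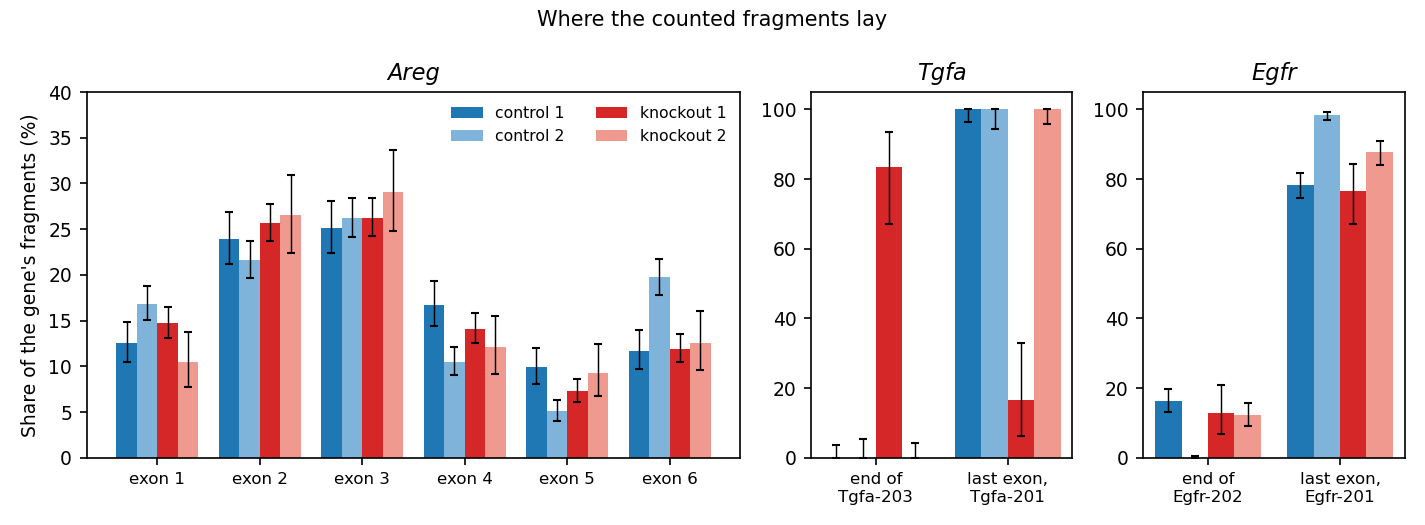
Share of each gene's counted fragments (%) by exon in each library, with exact 95% binomial intervals that cover counting error only. Exons 2 and 3 of Areg hold the largest shares in all 4 libraries and its last exon is highest in control 2, the end of Tgfa-203 holds 83.3% in knockout 1 alone, and the end of Egfr-202 holds 0 fragments in control 2.

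The other genes of the pathway were taken from 6 lists. Of 64 genes, 51 were tested and none was called in either direction. Their median log2 fold change was 0.16, beside 0.20 over all genes tested, with 29 positive and 22 negative. Both knockouts lay above both controls for 16 (31.4%, against 19.5% of all genes) and below for 2 (3.92%, against 11.2%). The summed level of macrophage and monocyte markers was also higher in both knockouts than in both controls, at 13110 and 4999 CPM in controls 1 and 2 and 23030 and 18580 in knockouts 1 and 2, with 6 of 9 tested markers above both controls. Neutrophil markers were at 390.3 and 269.2 CPM in controls 1 and 2 and at 1757 and 915.3 in knockouts 1 and 2, with 3 of 3 tested markers above both controls. Of 12 T cell markers, none had a positive log2 fold change and 5 lay below both controls. Their part in these counts was not tested.

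Among further ErbB ligands, 3 of 6 were tested, 1 positive and 2 negative. Epgn, epigen, an epithelial EGFR ligand, had 42, 1072, 21 and 47 fragments in control 1, control 2, knockout 1 and knockout 2. Its high level was that of control 2 alone, and its log2 fold change of -4.15 became -0.17 without that library. Nrg4, a neuregulin that binds ERBB4, had 0, 2, 18 and 67 in the same order. Pooled by genotype, the knockouts were 43.2-fold higher. The interval of 11.6 to 362.4 covers counting error only and leaves out the spread between libraries. With that spread, the log2 fold change of Nrg4 was 5.15 ± 2.48 (standard error) and did not pass the test (edgeR, adjusted p = 0.9997). Egf itself had 8 fragments in knockout 1 and 0 elsewhere. Of the other receptors, Erbb2, the partner that binds no ligand, had 15, 0, 33 and 102 fragments in control 1, control 2, knockout 1 and knockout 2. Erbb3, whose kinase is weak, had 86, 675, 122 and 302, and its log2 fold change of -0.95 became 1.43 without control 2. Erbb4, with 576 countable bases, had 0 fragments in every library.

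Of 10 tested shedding genes, 6 were positive and 4 negative, with a median log2 fold change of 0.06. Adam8, a metalloprotease of myeloid cells, had 197, 0, 575 and 227 fragments in control 1, control 2, knockout 1 and knockout 2. Adam15 had 226, 0, 342 and 161. Both were at 0 in control 2, so their log2 fold changes of 2.19 and 1.32 became 1.19 and 0.32 without it.

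Adaptor and cascade genes had 15 tested members, 9 positive and 6 negative, with a median of 0.16. Both knockouts lay above both controls for 7 of the 15, beside 19.5% of all genes tested. Gab2, a docking adaptor, averaged 141.9 ± 66.7 CPM over the controls and 289.1 ± 74.9 over the knockouts, and Araf, a kinase of the RAF family, 15.2 ± 4.72 and 50.0 ± 17.9 (SD, n = 2 each). Neither passed the test (log2 fold changes 1.03 and 1.71; edgeR, unadjusted p = 0.175 and 0.173). Inhibitors of the receptor and the cascade had 14 tested members, 6 positive and 8 negative, with a median of -0.06. Socs4, which promotes EGFR breakdown, was at 51.4 ± 11.0 and 103.2 ± 12.6 CPM, and Rasa1, which turns RAS off, at 58.7 ± 67.8 and 18.2 ± 5.997. These 2 did not pass the test either, with log2 fold changes of 1.01 and -1.69 (edgeR, unadjusted p = 0.2415 and 0.276). Rasa1 was high in control 2, and its log2 fold change of -1.69 became 0.76 without that library.

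Genes induced through the cascade, which many other signals induce as well, had 6 of 7 tested members positive, with a median of 0.43. Ier3, an early-response gene, averaged 2995 ± 79.2 CPM over the controls and 4878 ± 410.3 over the knockouts, and Fos 4148 ± 1042 and 5089 ± 571 (SD, n = 2 each). The log2 fold change of Ier3 was 0.70 (edgeR, unadjusted p = 0.172) and that of Fos 0.30 (0.558).

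**Figure D5:**
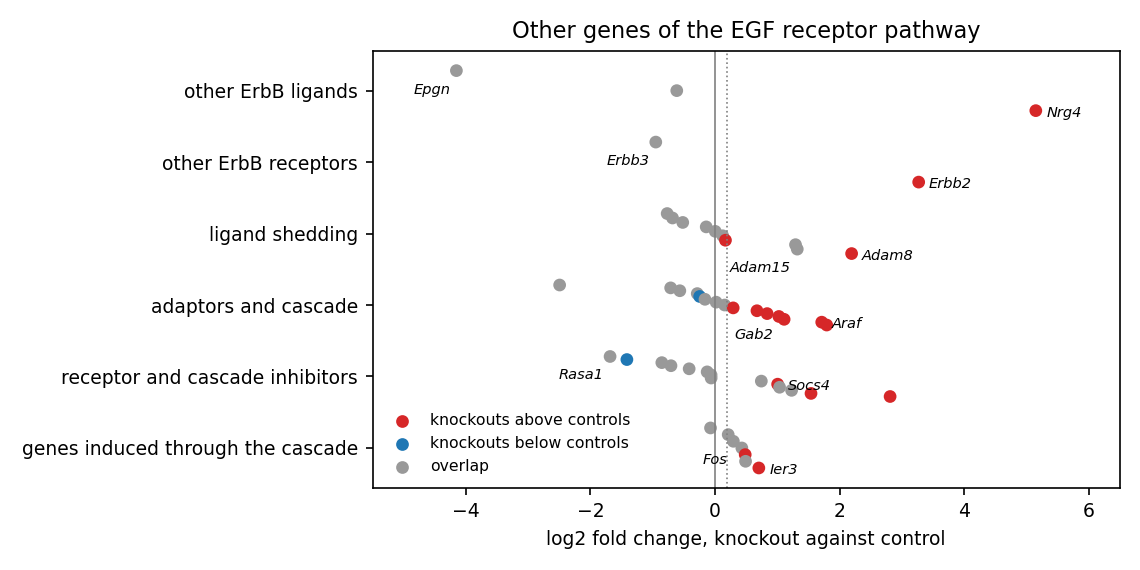
log2 fold change, knockout against control, of 51 tested genes in 6 lists of the pathway, coloured by whether both knockouts lie above or below both controls. The dotted line marks the median of all genes tested (0.20), and none of the genes was called.

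The profile of each member over the 4 libraries was set beside those of 8092 genes with a mean of at least 5 CPM, by the root mean square distance of centred log2 levels. Among the profiles nearest to Areg were those of Mbtps2 and Oma1, with 18 genes within 0.25. Nearest to Hbegf were Casd1, Trim37 and Dynlt3, and nearest to Ereg were Xrcc5, Pik3ip1 and Rbm48. Nearest to Egfr were Ptov1, Cdh13 and Zc3h6, and Cdh13, a cadherin, was at 202.6, 286.1, 46.7 and 179.0 CPM. Nearest to Tgfa were Sik3, Mmab and Dcn, the last a fibroblast matrix gene. Errfi1 had the fewest close profiles, 3 within 0.25, namely Gpt2, Actr5 and Uspl1. With 4 libraries such likeness is a description of these libraries only. Among the members, the closest pair was Ereg and Egfr (0.51) and the farthest was Areg and Errfi1 (1.59), while Areg lay nearer to Hbegf (0.65) than to its neighbour Ereg (1.21).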

How the data were processed

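The deposited tables hold raw fragment counts per annotated exon entry. They were made with featureCounts 2.0.1 from GRCm38 alignments and GENCODE M23, per the file headers, requiring both mates, ignoring strand and leaving out a fragment that touches more than 1 entry. Trim Galore 0.6.7 and STAR 2.7.9a are named in the submitters' processing notes. The 542698 entries (64.5%) that share coordinates with another entry of the same gene therefore held 0 fragments. Spliced fragments that touch 2 exons are lost as well.

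Entries were summed per gene, and symbols matched for 55154 of 55335 identifiers. Transcript types came from GENCODE M21, which held all 124 entries of the members. Knockouts were compared with controls with edgeR 4.0.16 under R 4.3.3 (filterByExpr, minimum count 10; TMM factors; no covariate). DESeq2 1.42.0 and limma 3.58.1 were alternatives. The test was first run on simulated counts whose spread was set by hand, so that run does not show what the test can detect in these libraries. Named are all members, the 2 genes of lowest p in each pathway list, markers used to check the label, and the 3 nearest profiles of each tested member, of which 1 is not reported here. Egf, Erbb4, Cd4 and Foxp3 were named after their values were seen. The members and lists were chosen with earlier results of these data known. The number of mice per library is not stated, so p-values reflect only how much these libraries vary. No molecular identifiers are described, and intervals cover counting error only. The handling of duplicates is not stated.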

Additional observations from a re-analysis of the deposited data

How the results depend on the processing

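No member passed the threshold in any of 12 alternatives (11 for Errfi1, which had too few fragments in protein-coding exons, an alternative chosen after seeing the data). Over all genes the count was 0, except 17 by DESeq2, 27 without a low-count filter and 0 to 4 with 1 library left out. With 1 library left out, log2 fold changes lay between -1.58 and 0.60 for Areg, -1.46 and 0.06 for Ereg, -1.52 and -0.10 for Hbegf, -1.07 and 0.10 for Tgfa, -2.35 and -0.53 for Egfr, and 0.86 and 2.31 for Errfi1. The sign turned for Areg without control 2 (0.43) and without knockout 2 (0.60), for Ereg without control 2 (0.057) and for Tgfa without knockout 1 (0.10). The cause was not tested. Other scalings, filters and tools, exons without retained introns, and a covariate for Y-linked transcripts (76 and 118 fragments in control 1 and knockout 2, 1 and 0 in the others) turned no sign. The limit of 10 fragments above which a library counted as holding Y-linked transcripts was set after these counts were seen, in place of a higher one under which control 1 counted as holding none. Without control 1, the common shift of all genes was 1.72 instead of 0.20, and less that shift the 6 tested members lay between -3.24 (Hbegf) and -0.52 (Errfi1, 1.41 with all libraries). The lowest adjusted p of a member was 0.133, for Hbegf in that setting. No paired analysis was possible because the labels number no replicates. Btc and Errfi1 are limited by few countable coding bases (262 and 192), and Tgfa by 36 to 102 fragments a library.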
